A study of Mus musculus with 6 samples.

Results

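The genes described here are 43 mouse nuclear receptor genes, chosen by symbol as a gene family and placed on the RefSeq table of GRCm38.p6, which held 21900 protein-coding genes in all. All 43 symbols were found in that table. For each gene, the peaks of MafA and of the histone mark H3K4me3 in the gene body or within 10 kb either side were collected. The cells were MIN6, a mouse insulin-secreting line labelled as beta cells, with no label for any treatment beyond the antibody. CUT&RUN cuts chromatin with a nuclease tethered to a bound antibody, here in cells made permeable, and the fragments set free are sequenced. The series had 6 libraries: 2 with an antibody to endogenous MafA, 2 with an antibody to H3K4me3 as positive control and 2 with IgG as negative control. Each library came from 500000 cells. Peak lists of the 4 MafA and H3K4me3 libraries were used, and the IgG libraries were not analysed here. Nothing in the labels says that replicates were separate cultures, so their spread may be technical.

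Nuclear receptors are transcription factors with a zinc-finger DNA-binding domain and a ligand-binding domain. Some bind steroid or thyroid hormones, retinoids, vitamin D, bile acids or fatty acids, and others, the orphans, have no known natural ligand or act without one. Many pair with a retinoid X receptor (RXR) on DNA repeats built from the core AGGTCA. In beta cells, members of the family are known to influence insulin secretion, lipid handling, differentiation and the circadian clock. MafA is a basic leucine zipper factor of mature beta cells that activates the insulin genes, and H3K4me3 is a mark of active gene starts.

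The lists held 33013 and 42747 peaks for MafA replicates 1 and 2, and 16020 and 16904 for H3K4me3. Median fold enrichment, the ratio of the pileup at a summit to its modelled background, was 4.82 to 5.03 for MafA and 13.4 to 14.8 for H3K4me3. Read totals were not given in the sources used here, but whole fragments could be recovered at the summits: a median of 25 and 46 in the MafA libraries and of 759 and 263 in the H3K4me3 libraries. Overlapping peaks of the replicates were joined into regions, which numbered 25894 for MafA and 15573 for H3K4me3. A gene carried the H3K4me3 mark when a region lay within 1 kb of either gene end. Of 10 beta cell marker genes, 7 carried the mark (not Ins1, G6pc2 and Ucn3), as did 1 of 4 markers of other islet cells (Gcg), 0 of 4 acinar and duct markers and 0 of 5 markers of other tissues, against 55.8% of all protein-coding genes. A MafA region lay near 10, 3, 1 and 3 genes of these lists in the same order, against 44% of all genes, and Alb, a liver marker, had one with a fold enrichment of 17.8 and 26.2. Fold enrichments are those deposited by the authors. Values are given for replicate 1 and then replicate 2 throughout.

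The first question was which receptor genes lie near MafA binding. Of the 43 genes, 28 (65.1%) had a MafA region in the body or at most 10 kb away, against 44% of all protein-coding genes. The receptor genes are long, with a median window of 67.1 kb against 37.1 kb, and longer windows hold regions more often. Among windows over 120 kb, 9 of 12 receptor genes had a region against 78.5% of all such genes, a share close to the background. Among windows of 60 to 120 kb it was 8 of 13 against 59.7%. In shorter windows the counts lay above the background: 7 of 11 against 44.8% from 30 to 60 kb, and 4 of 7 against 25.6% up to 30 kb. The family had 1.56 MafA regions per 100 kb of window and all genes had 1.48. These are counts of a chosen list, with no test.

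The 28 genes carried 92 distinct MafA regions, of which 76 lay at least partly inside a receptor gene and 16 outside. The shared region was that of Thra and Nr1d1, which are neighbours. For 75 regions no gene outside the family lay within 10 kb. At 7 genes (Ppara, Nr1i3, Nr1d1, Esrra, Nr2c1, Nr2f6 and Nr4a2) every region also lay within 10 kb of another protein-coding gene. Taking the 16020 strongest peaks of every library left 39 regions and 19 genes. The share of all protein-coding genes was not computed at this setting, so these counts have no background beside them. The cut went by fold enrichment, so the 9 genes lost had the lowest values by construction: Rarg, Ppara, Rorb, Esrra, Nr2c1, Nr2f6, Nr4a1, Nr4a2 and Nr4a3. It did not go by fragments. Nr2f6 was lost with 88 and 217 at its region, and Nr3c1 stayed with 13 and 26 at its strongest.

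**Figure D1:**
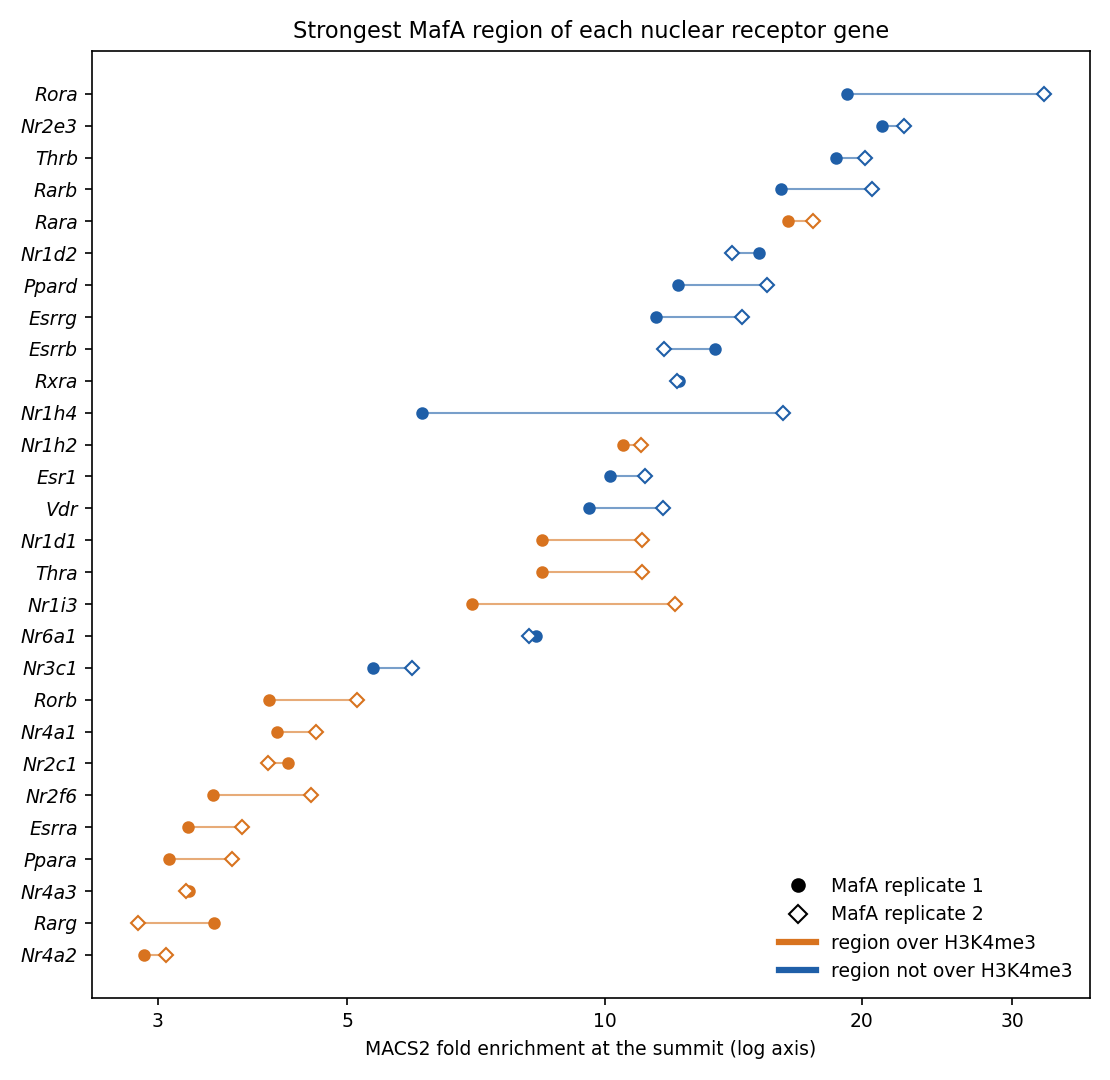
Strongest MafA region of the 28 nuclear receptor genes that have one. The x axis is MACS2 fold enrichment on a log axis, filled circles are MafA replicate 1, open diamonds replicate 2, and the colour says whether the region overlaps H3K4me3. The values run from 2.98 at Nr4a2 to 26.0 at Rora (means of 2 replicates), and the 9 lowest genes all have a strongest region over H3K4me3.

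The regions came in 2 kinds. Of the 92, 30 overlapped an H3K4me3 region and 62 did not. Median fold enrichment was 3.56 and 4.07 in MafA replicates 1 and 2 for regions over H3K4me3, and 6.13 and 6.63 for the others. Fragments at the summit were ordered the opposite way, with medians of 53 and 110 over H3K4me3 and 29.5 and 56 elsewhere. The modelled background, by which the pileup is divided, was 13.2 and 18.8 over H3K4me3 and 3.38 and 4.98 elsewhere, and its part in the difference was not tested. The order of both kinds was the same in each replicate. The same medians over all MafA regions were 4.24 and 4.54 against 5.84 and 6.40 for fold enrichment, the same order as at the receptor genes. Of the family's regions, 32.6% overlapped H3K4me3, against 23.5% of all MafA regions. The sets are unlike, since the family's regions lie within 10 kb of a gene by rule and the others were taken wherever they lay.

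**Figure D2:**
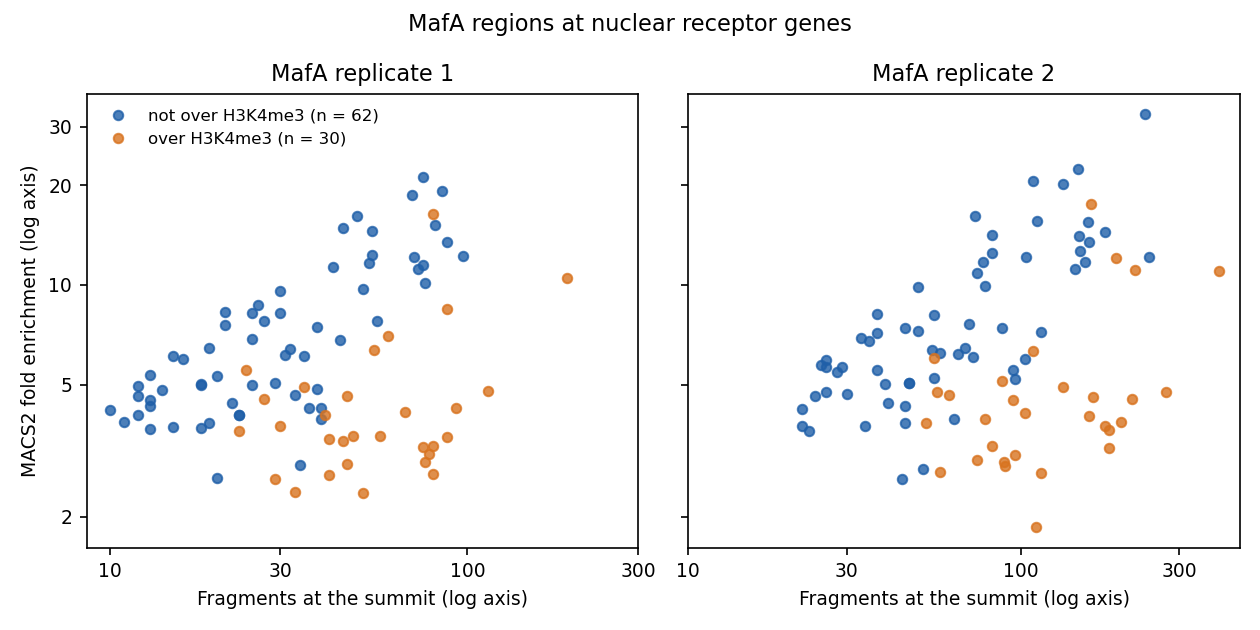
Fold enrichment against fragments at the summit for the 92 MafA regions at nuclear receptor genes, both on log axes, with a panel for each MafA replicate. Blue points are the 62 regions not over H3K4me3 and orange points the 30 over it. At a like number of fragments the orange points mostly sit lower.

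The highest fold enrichments were mostly in gene bodies away from H3K4me3, although the genes divided evenly. At 14 genes the strongest region did not overlap H3K4me3, and all 14 of these regions lay inside the gene, with fold enrichment from 5.65 to 26.0 and a median of 12.8. At the other 14 genes the strongest region overlapped H3K4me3, with fold enrichment from 2.98 to 17.0 and a median of 4.26. By fragments the order was another: the most, 190 and 395, were at a region of Nr1h2 over H3K4me3. A fold enrichment of 11.9 marks the 90th percentile of all MafA regions. Regions at or above it were found at 10 receptor genes (23.3%), against 6.79% of all genes. There were 13 such regions (14.1% of the family's 92), 12 of them inside the gene, and 1 overlapped H3K4me3. Of all 92 regions, 76 lay inside and 30 overlapped H3K4me3. The same counts over all MafA regions at or above that percentile are not given here. A long gene has more chances of a strong region, and these shares were not matched for length. Taking each gene's strongest region, the median was 10.2 over the 28 receptor genes and 6.19 over the 9639 genes with a region. Such genes had a median of 2 regions in the family and 1 over all genes, and a maximum rises with that number. Over single regions the median fold enrichment was 5.28 in the family and 5.75 over all MafA regions.

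MafA regions covered RefSeq start sites at some members, and the sequences there are shown because they allow the MAF element to be looked for under the peak. RefSeq promoter windows, from 250 bases before a start to 50 after, were given for 40 genes (60 windows), and none was given for Thra, Nr3c1 and Nr5a1. A MafA region overlapped such a window at 10 genes (25%, against 17.6% of genes with an entry). Printed are the 250 bases before the start, from RefSeq on GRCm38.p6, 5′ to 3′ on the strand of the gene. Capitals mark any match, on either strand, to the MAF element core TGCTGAC, the shorter TGCTGA that it contains, the nuclear receptor core AGGTCA, or the core TGACGT of the cyclic AMP response element. Nr1d1 is shown as the strongest, and the others because they hold a match, a choice made after the matches were seen.
Nr1d1, chr11:98775378-98775627, minus strand: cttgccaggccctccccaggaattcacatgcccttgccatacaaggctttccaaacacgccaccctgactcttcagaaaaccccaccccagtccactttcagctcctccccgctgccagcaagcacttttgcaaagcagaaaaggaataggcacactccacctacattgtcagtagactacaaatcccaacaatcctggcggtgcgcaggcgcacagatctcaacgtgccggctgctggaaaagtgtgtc
Rorb, chr19:19111197-19111446, minus strand: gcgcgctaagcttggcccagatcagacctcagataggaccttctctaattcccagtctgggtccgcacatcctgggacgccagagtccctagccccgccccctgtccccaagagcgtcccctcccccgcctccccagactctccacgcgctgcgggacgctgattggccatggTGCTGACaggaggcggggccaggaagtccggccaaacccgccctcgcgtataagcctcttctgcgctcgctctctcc
Nr1d2, chr14:18239107-18239356, minus strand: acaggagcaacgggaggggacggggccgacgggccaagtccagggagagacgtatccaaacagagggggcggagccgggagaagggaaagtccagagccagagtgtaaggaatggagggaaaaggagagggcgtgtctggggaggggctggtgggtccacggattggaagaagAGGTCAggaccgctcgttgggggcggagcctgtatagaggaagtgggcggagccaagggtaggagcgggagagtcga
Thrb, chr14:17660710-17660959, plus strand: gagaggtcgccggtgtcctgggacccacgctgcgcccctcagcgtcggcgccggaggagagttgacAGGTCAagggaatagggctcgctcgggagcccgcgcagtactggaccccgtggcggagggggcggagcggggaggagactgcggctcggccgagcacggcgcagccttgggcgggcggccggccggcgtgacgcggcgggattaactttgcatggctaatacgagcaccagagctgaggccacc
Nr2c1, chr10:94147681-94147930, plus strand: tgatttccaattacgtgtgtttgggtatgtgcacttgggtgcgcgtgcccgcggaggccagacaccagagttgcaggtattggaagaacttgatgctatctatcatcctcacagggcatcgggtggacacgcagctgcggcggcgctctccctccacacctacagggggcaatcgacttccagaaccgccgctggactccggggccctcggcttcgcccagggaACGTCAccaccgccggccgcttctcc
Nr4a3, chr4:48045055-48045304, plus strand: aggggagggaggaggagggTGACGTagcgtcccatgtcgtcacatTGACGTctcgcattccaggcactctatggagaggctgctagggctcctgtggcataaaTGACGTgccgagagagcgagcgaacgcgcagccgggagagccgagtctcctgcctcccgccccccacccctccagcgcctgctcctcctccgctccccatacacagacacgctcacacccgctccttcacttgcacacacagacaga

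In the Rorb sequence TGCTGAC began 77 bases before the start. It was the sole match to that core among the 11 windows under a MafA region and among all 60 of the family, and 4.67% of all 32851 RefSeq windows of the same length hold it. Nr1d1, with the highest fold enrichment among regions over a promoter window, held none of the 4 motifs in its window. The core AGGTCA was present at Nr1d2, 77 bases before the start, and at Thrb, 184 bases before it. It was found in 11 of the 60 family windows and in 16.3% of all windows. TGACGT occurred 3 times at Nr4a3, at 231, 205 and 147 bases before the start, and once at Nr2c1. It was found in 5 of the 60 family windows, near the 7.51% of all windows. The matches in the Nr6a1 window, after the start, lay outside the part that the MafA region covers. The shorter TGCTGA was in 3 family windows and in 19.5% of all windows. A match is a description of these letters and not a site.

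Receptors for thyroid hormone, retinoids and vitamin D, with the RXRs, held 29 regions at 7 of 9 genes. Thrb encodes thyroid hormone receptor beta. Its strongest region, on chromosome 14 from 17983162 to 17984951, had a fold enrichment of 18.6 in replicate 1 and 20.2 in replicate 2 (19.4 ± 1.10, mean ± SD, n = 2). Both replicates had their summit at the same base, which lay 2.09 kb from the nearest RefSeq start of Thrb, and no H3K4me3 region was there. A weaker region covered the marked start of Thrb, whose sequence is printed among the promoters, with 2.37 and 4.10. Thra, which encodes thyroid hormone receptor alpha, had 3 regions, all over H3K4me3. At its own gene end the values were 3.50 and 4.91.

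Rarb, a retinoic acid receptor gene of 651 kb, had 9 regions, all inside the gene and none over H3K4me3. The strongest, on chromosome 14 from 16481183 to 16482294, had 16.1 and 20.6 (18.3 ± 3.18, n = 2). The next, from 16496457 to 16498269, had 11.2 and 13.5. The weakest had 4.41 and 4.32. Rarb carried no H3K4me3 mark at a gene end, and its sole H3K4me3 region, inside the gene, had a fold enrichment of 7.55 and 6.21. Rara had 4 regions, the strongest on chromosome 11 from 98924442 to 98926622 with 16.4 and 17.5. This region lies outside Rara, 1.18 kb from its end, and within 10 kb of Cdc6. The H3K4me3 region under it was weak, with 2.39 and 3.21. Rarg had 1 region, with 3.49 and 2.84, near an internal RefSeq start.

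Rxra encodes the RXR with which many family members pair. It had 7 regions in and around a gene of 86.9 kb, and none overlapped its H3K4me3 mark. Of these, 4 were the strongest: a region 4.39 kb outside the gene with 12.3 and 9.94, and 3 inside it with 9.75 and 12.6, 11.6 and 12.1, and 12.2 and 12.2. The last, on chromosome 2 from 27757776 to 27759176, rested on 97 and 243 fragments. Their means, from 11.1 to 12.2, lay closer together than the replicates of the most variable of them. Rxrb had no MafA peak in either replicate although it carried the mark. Rxrg had no mark and a peak in replicate 1 alone (fold enrichment 4.73, 17 fragments). Vdr, the vitamin D receptor gene, had 1 region, inside the gene, with 9.58 and 11.7 from 30 and 77 fragments.

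The lipid, bile acid and xenobiotic sensors had regions at 5 of 8 genes. Ppard, whose product responds to fatty acids, had 3 regions inside the gene. The strongest, on chromosome 17 from 28252833 to 28253873, had 12.2 and 15.5 (13.8 ± 2.33, n = 2). Nr1h2, which encodes the oxysterol receptor LXR beta, had a region at its own marked end, on chromosome 7 from 44553237 to 44553910. It had 10.5 and 11.0 (10.8 ± 0.365, n = 2) and, with 190 and 395, the most fragments of the family's regions in both replicates. Pold1 lay within 10 kb of it. Nr1h4, the bile acid receptor FXR gene, had 3 regions. The region with the highest mean rested on replicate 2, with 6.11 and 16.2 from 15 and 73 fragments and summits 279 bp apart. In replicate 1 it was the lowest of the 3. Another region inside the gene had 8.21 and 7.44. The region at its marked end had 6.36 and 6.34.

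The other 5 sensor genes differed. The region of Ppara lay 3.78 kb outside the gene, near other genes, with 3.09 and 3.66. That of Nr1i3 lay 2.21 kb outside, within 10 kb of Tomm40l, Apoa2 and Fcer1g, with 6.995 and 12.1. No MafA peak was listed in either replicate at Pparg or Nr1h3, both of which carried H3K4me3 at a gene end. The mark at Pparg was weak, with 4.46 and 7.98. Nr1i2 had no H3K4me3 region and a MafA peak in replicate 1 alone, with 2.62 and 20 fragments.

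The 4 clock-linked genes encode the repressors REV-ERB alpha (Nr1d1) and beta (Nr1d2) and the activators ROR alpha (Rora) and beta (Rorb). All 4 had the H3K4me3 mark and a MafA region, as did 7476 of all 21900 protein-coding genes. Rora had 18 regions, the most in the family, in a gene of 735 kb. Of these, 17 lay inside the gene and 16 did not overlap H3K4me3. The strongest, on chromosome 9 from 69084041 to 69085447, had 19.2 in replicate 1 and 32.7 in replicate 2 (26.0 ± 9.54, n = 2) and rested on 85 and 237 fragments. The replicates differed 1.70 times. The summits lay 52 bp apart, 431 kb from the RefSeq start. The next were regions from 68988049 to 68989321 with 14.6 and 15.6, and from 69155635 to 69156821 with 14.8 and 12.4. Both stayed below the strongest in each replicate, and they overlapped each other across replicates. The remaining 15 had means from 3.79 to 9.45. Rora is long, and its 18 regions amount to 2.38 per 100 kb of window, against 3.88 for Esrrb and 6.55 for Rxra.

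Nr1d2 had a region inside the gene on chromosome 14 from 18233228 to 18235333 with 15.2 and 14.1 (14.6 ± 0.765, n = 2), 5.01 kb from its start. It had another at the marked start with 2.93 and 3.85. The stronger region had 81 and 150 fragments and the region at the start had 76 and 200. At Nr1d1 the sole region lay over the start, on chromosome 11 from 98775048 to 98776165, with 8.45 and 11.1 (9.76 ± 1.85, n = 2). It was also the strongest region within 10 kb of Thra. Rorb had 4.05 and 5.13 at its start and 4.06 and 3.84 inside the gene, values that overlapped between the regions.

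Of the steroid hormone receptor genes, 2 of 5 had a MafA region. Esr1, the oestrogen receptor alpha gene, had 2 regions deep in the gene and none over H3K4me3. The stronger, on chromosome 10 from 4958217 to 4959720, had 10.1 and 11.1, and the other had 6.80 and 7.41. Nr3c1, the glucocorticoid receptor gene, had a region at a gene end with 5.35 and 5.95 from 13 and 26 fragments, where no H3K4me3 was found. Its other region overlapped H3K4me3 27.3 kb from the nearest gene end, with 4.78 and 4.76 from 114 and 273 fragments. By the rule on gene ends Nr3c1 counts as unmarked. Nr3c2 (1 peak, replicate 1), Pgr (2 peaks, replicate 2) and Esr2 (1 peak in each replicate, not overlapping) had no region.

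The oestrogen-related receptors are orphans that act with the coactivators PGC-1 on energy metabolism. Esrrg, a gene of 606 kb, had 5 regions. The strongest, on chromosome 1 from 188186091 to 188187951, had 11.5 and 14.5. A pair of regions over H3K4me3 lay near an internal start, with 4.52 and 4.49 and with 3.63 and 4.76. Esrrb had 7 regions, none over H3K4me3, and no mark at a gene end. Its strongest, on chromosome 12 from 86517609 to 86519343, had 13.5 and 11.7. When 50% reciprocal overlap of the replicate peaks was required, the strongest remaining region of Esrrb had 7.14. Esrra, with the strongest H3K4me3 of these 3 genes (31.3 and 20.4), had 1 MafA region, 0.106 kb beyond its marked end, with 3.25 and 3.76.

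**Figure D3:**
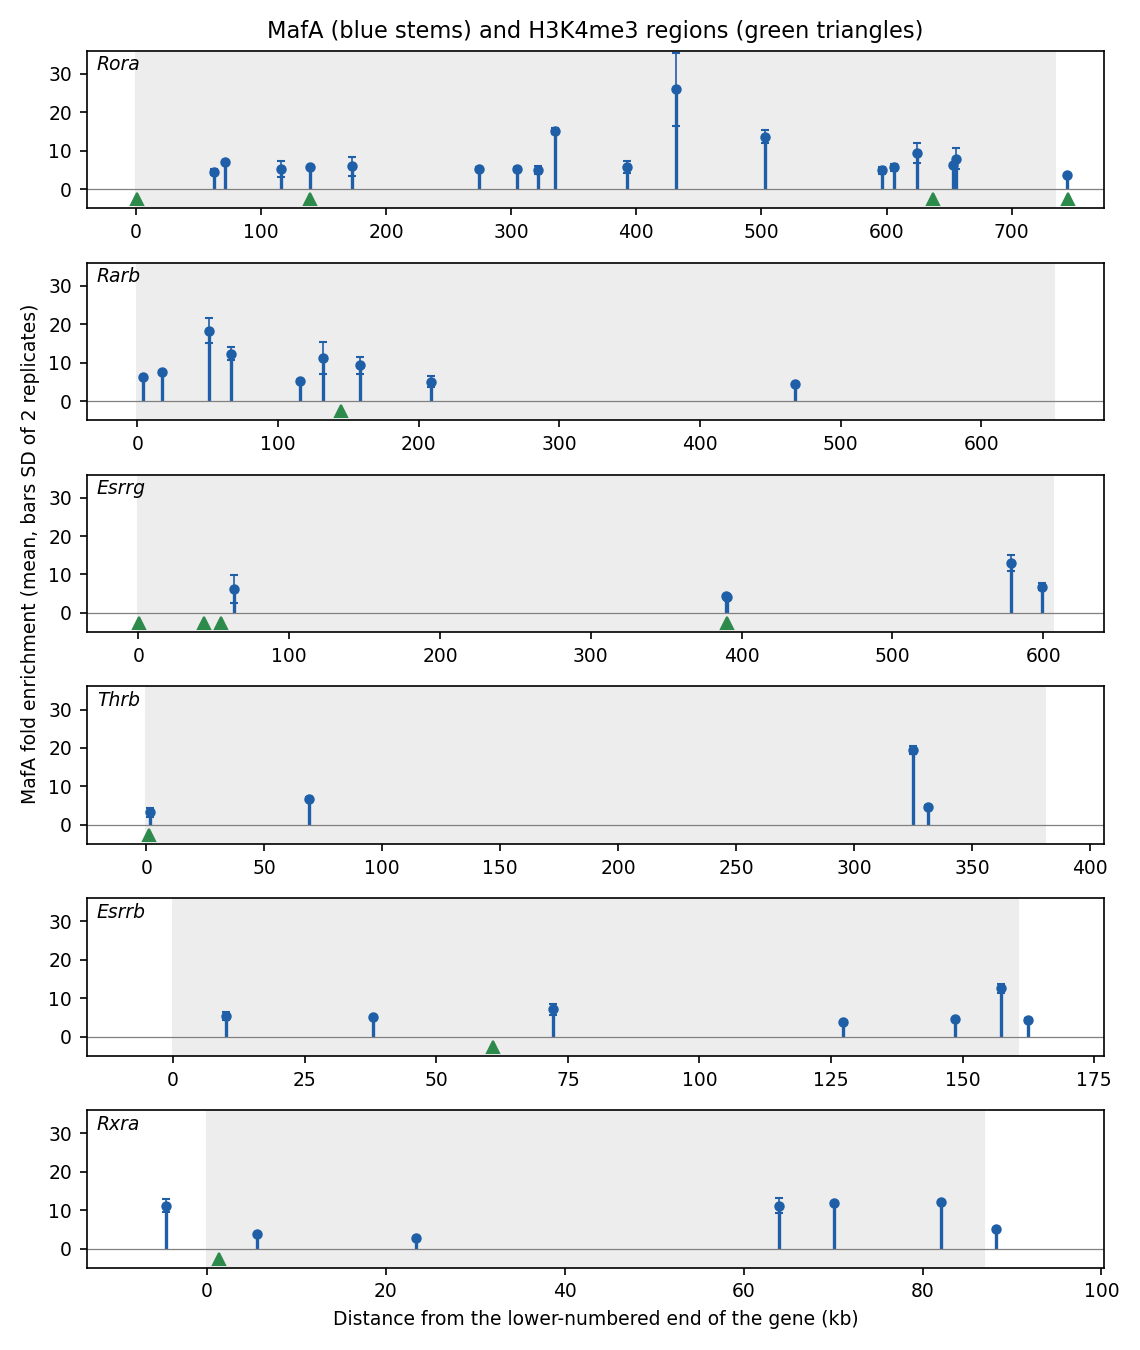
MafA and H3K4me3 regions along 6 receptor genes with many MafA regions or strong ones. The x axis is the distance in kb from the lower-numbered gene end, grey is the gene, blue stems give MafA fold enrichment (mean, bars are the SD of 2 replicates) and green triangles H3K4me3 regions. The tallest stems (26.0 at Rora, 19.4 at Thrb, 18.3 at Rarb) stand inside the genes and away from triangles.

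Among the NR2 orphans, 3 of 7 had a region. Nr2e3, known for its role in photoreceptors of the retina, had the second highest fold enrichment of the family. Its region, on chromosome 9 from 59952239 to 59953368, had 21.1 and 22.4 (21.8 ± 0.945, n = 2) and summits 13 bp apart. Nr2e3 itself carried no H3K4me3 mark within 1 kb of a gene end, and its sole H3K4me3 region lay 1.71 kb from one. No other gene lay within 10 kb of that region. A far weaker region outside the gene had 2.62 and 2.79. Nr2c1 and Nr2f6 had regions over H3K4me3 of at most 4.53 in either replicate. Nr2f1 and Nr2f2, the COUP-TF genes that act in development, and Nr2c2 carried the mark but no MafA region. The mark of Nr2f2 lay outside the gene, 290 bp from a gene end and 15090 bp from its nearest RefSeq start. Nr2e1 had neither target.

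The NR4A genes are induced early by many stimuli and act without a known natural ligand. All 3 had the H3K4me3 mark and a MafA region, where 7476 of all 21900 protein-coding genes had both. Their strongest regions were among the weakest of the family, with means from 2.98 to 4.37. At Nr4a1 the values were 4.14 and 4.60 for a region 6.59 kb outside the gene, 4.25 and 3.93 for one 5.24 kb outside and 3.37 and 2.96 for one close to a RefSeq start. At Nr4a2 they were 2.89 and 3.07, and 2.67 and 2.93, both under the same H3K4me3 region inside the gene. At Nr4a3 they were 3.26 and 3.23 for a region 1.86 kb outside the gene and 2.36 and 2.71 at the start. Fragments at these summits were not few. The 80 and 185 at the strongest Nr4a3 region compare with 85 and 237 at the strongest Rora region. None of the 7 NR4A regions exceeded 4.60 in either replicate, and 6 of them overlapped H3K4me3.

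In the remaining group, Nr6a1 had a region inside the gene with 8.31 and 8.17 and another at its marked start with 2.69 and 1.86. Nr5a1 and Nr5a2, which act in steroid-producing and digestive tissues, had no peak of either target. Nr0b2, the gene of the bile acid responsive corepressor SHP, had 1 MafA peak in each replicate at different positions. In all, 7 genes had no MafA peak in either replicate (16.3%, against 39% of all genes): Rxrb, Pparg, Nr1h3, Nr2e1, Nr2f2, Nr5a1 and Nr5a2. A further 6 had peaks in 1 replicate alone (14%, against 15%): Rxrg, Nr1i2, Nr3c2, Pgr, Nr2c2 and Nr2f1. Peaks in both replicates that did not overlap were found at Esr2 and Nr0b2 (4.65%, against 1.9%). These peaks had at most 58 fragments and a fold enrichment of 2.62 to 5.57. The shares of genes without a region were not matched for window length. Across the threshold of the window, the last gene counted was Ppara, whose region lies 3.78 kb away, and the first left out was Nr0b2, with the nearest region 10.6 kb away.

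**Figure D4:**
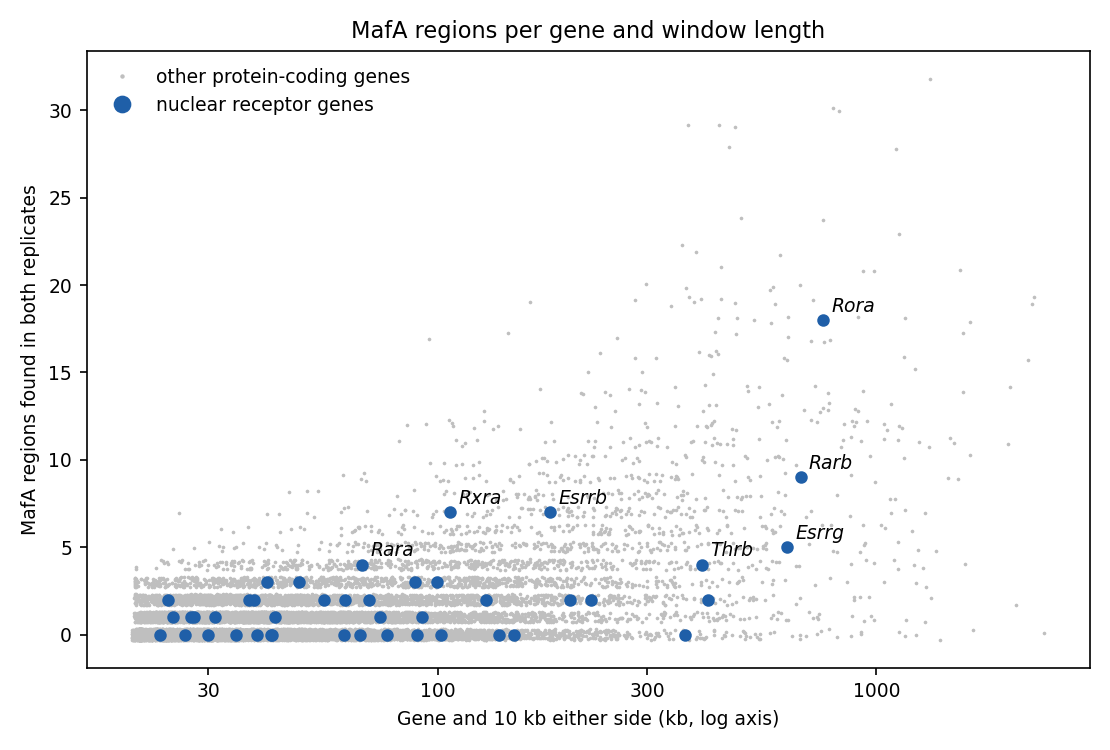
Number of MafA regions per gene against the length of the gene with 10 kb either side (kb, log axis). Blue points are the 43 nuclear receptor genes and grey points other protein-coding genes, moved slightly up or down at random so that they can be told apart. The 7 receptor genes with 4 or more regions are named, and 5 of them have windows over 120 kb.

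Genes with many regions were mostly long. There were 4 or more at 7 receptor genes (16.3%, against 6.39% of all genes), and at 5 of the 12 with windows over 120 kb (37.4% of all genes of that length). Windows over 120 kb held 1.20 regions per 100 kb in the family and 1.34 over all genes.

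The H3K4me3 mark at a gene end was carried by 30 of the 43 genes (69.8%), against 55.8% of all protein-coding genes. An H3K4me3 region lay in or within 10 kb of 37 genes (86%, against 65.2%, not matched for window length). None was found at Rxrg, Nr1i2, Esr2, Nr2e1, Nr5a1 and Nr5a2. The strongest was at Rxra, with 39.7 in replicate 1 and 33.2 in replicate 2. At the other end, Esr1 had the mark with 5.95 and 5.88. The marks of the family had a median width of 2.25 kb, against 2.17 kb over all marked genes. That of Nr4a3 was 5.69 kb wide, and 99.2% of marked genes had none wider. Nr3c2, the mineralocorticoid receptor gene, had 4.22 kb. Nr1h3, the LXR alpha gene, had 3.78 kb, in a region outside the gene. That region lay 0.595 kb from a gene end and 11569 bp from the nearest RefSeq start of Nr1h3. The region over the other end of Nr1h3 was 2.1 kb wide. The gene just inside the rule on gene ends was Nr3c2, at 530 bp, and the gene just outside was Pgr, at 1079 bp. With RefSeq start sites in place of gene ends, 29 of 40 genes were marked (72.5%, against 57.6% of the 17492 genes with a promoter entry).

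**Figure D5:**
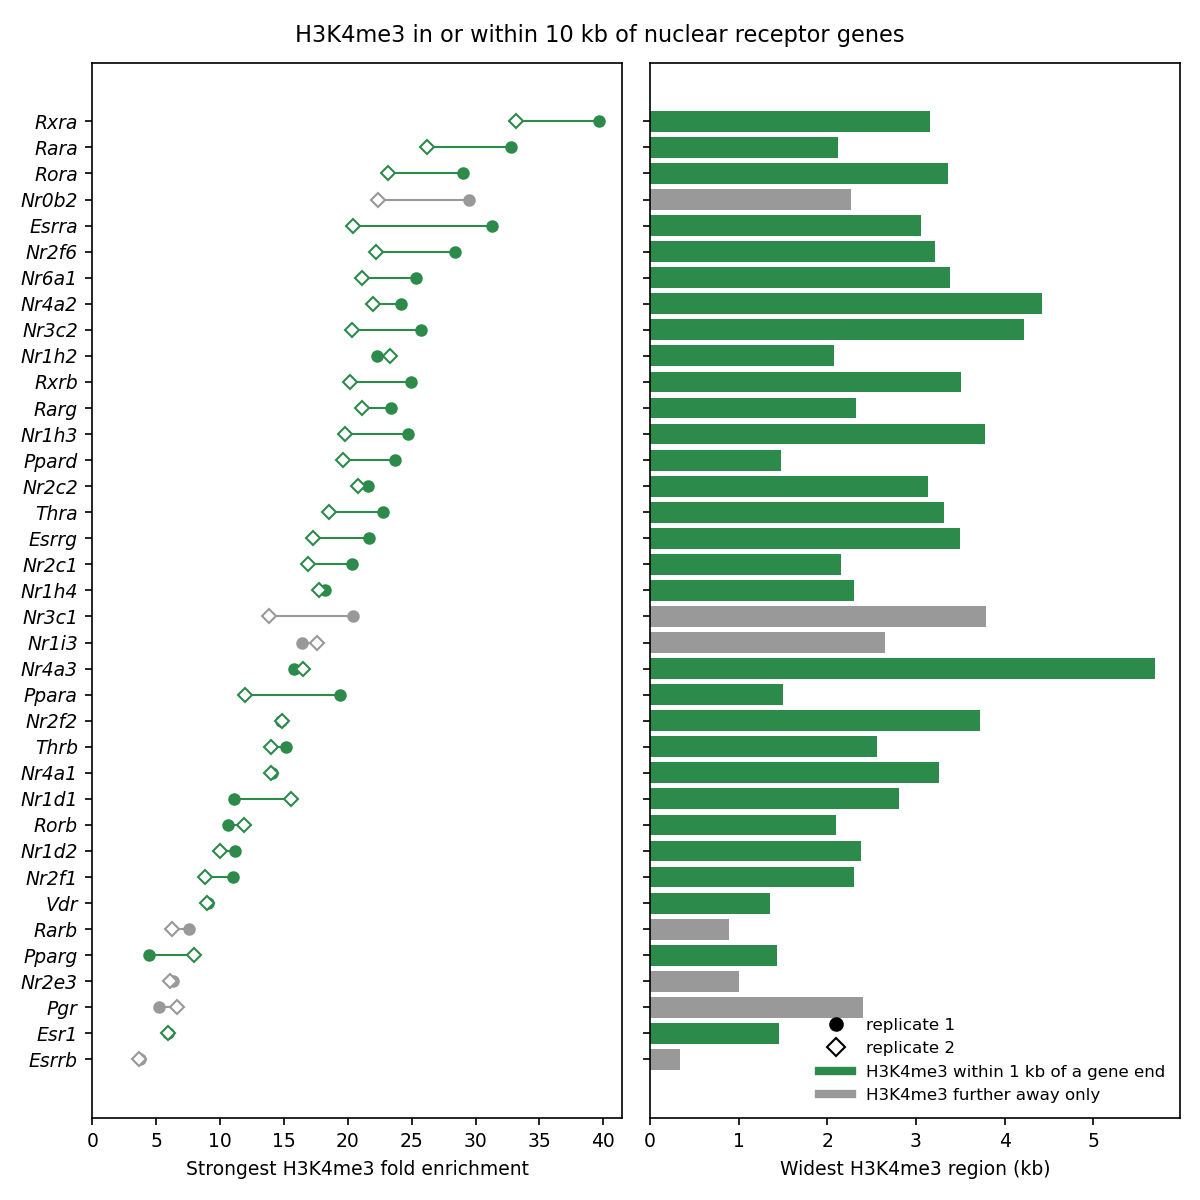
H3K4me3 at the 37 receptor genes with an H3K4me3 region. The left panel gives the fold enrichment of the strongest region in replicate 1 (filled circles) and replicate 2 (open diamonds), and the right panel the width in kb of the widest region. Green genes have H3K4me3 within 1 kb of a gene end and grey genes further away only. Rxra has the highest values, 39.7 and 33.2, and Nr4a3 the widest region, 5.69 kb.

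MafA and H3K4me3 were then set side by side. Of the 30 marked receptor genes, 23 had a MafA region (76.7%), against 61.2% of all marked genes. Of the 13 unmarked genes, 5 had one (38.5%, against 22.3%): Rarb, Nr1i3, Nr3c1, Esrrb and Nr2e3. H3K4me3 lay 1.99 kb from an end of Nr1i3 and 1.71 kb from an end of Nr2e3. With the mark taken within 2 kb both count as marked, and marked genes with a region number 25. Neither share was matched for window length, and the windows of receptor genes are longer. Among the 16020 strongest peaks of every library the marked genes with a region numbered 14. A MafA region over H3K4me3 and within 1 kb of a gene end was found at 11 genes (25.6%, against 18.3%): Thra, Thrb, Nr1h2, Nr1h4, Nr1d1, Nr1d2, Rorb, Esrra, Nr2c1, Nr4a3 and Nr6a1. Their values there ran from 1.86 at Nr6a1 in replicate 2 to 11.1 at Nr1d1 in replicate 2. With the strongest peaks by fold enrichment alone, 3 genes remained in that class. Shares over all genes were not computed for the strongest peaks.

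The targets also differed in the shape of peaks at these genes. Peaks in the receptor genes' windows had a median width of 599.5 and 658 bp in the MafA libraries and 1796 and 1710 bp in the H3K4me3 libraries. The difference of -1124 bp was larger than the spread within either target (629 ± 41.4 against 1753 ± 60.8 bp, mean ± SD, n = 2). Of these peaks, 11.4 ± 1.27% lay within 1 kb of a receptor gene's end for MafA and 41.7 ± 0.421% for H3K4me3, a difference of -30.2 percentage points (-17.2 with 50 kb either side of the genes). A two-sided exact permutation test over the 4 libraries gave p = 0.333 for each difference. No smaller p is possible with 2 libraries a target, so 0.05 was out of reach.

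Nuclear receptors act through coregulators, proteins that open or close chromatin or serve as chaperones. A list of 27 coregulator genes had the mark at 26, against 55.8% of all genes, and a MafA region at 20, against 44%. All 20 were among the 26 marked genes, against 61.2% of all marked genes. Many coregulator windows are also long, and 59.7% of all genes with windows of 60 to 120 kb and 78.5% of those with longer ones had a region. The strongest region of Nrip1, a corepressor gene, had a fold enrichment of 17.7 and 18.4, and that of the coactivator gene Ncoa2 had 13.9 and 15.0. Hdac3, a histone deacetylase gene, had 12.8 and 15.1. Ncor1 had 3.10 and 6.00. No region was found at Med1, Ep300, Prmt1, Nsd1, Gps2, Hsp90aa1 and Hsp90ab1.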

How the data were processed

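Peak lists of 4 CUT&RUN libraries (MafA and H3K4me3, 2 replicates each) were analysed. Groups came from the sample titles. Peaks were called with MACS2 on each library, per the peak names and the submitters' processing notes, which also name GRCm38 and mm10. The MACS2 version, aligner, control library and duplicate handling were not given in the sources used here. Fold enrichment, as deposited by the authors, is the ratio of pileup to modelled background at the summit. The deposited −log10 p-values and −log10 q-values are for the summit, and the lowest −log10 q was 2.00. The score column deposited by the authors holds no further information, being a rounded multiple of −log10 q, and was not used.

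Positions were made 1-based. Peaks of both replicates that shared at least 1 bp were joined into a region, whose value in a replicate is that of its strongest peak there. Genes and ends came from the RefSeq table of GRCm38.p6, which has no strand or exons, so places are given as inside or outside a gene. Fragments at a summit were solved from fold enrichment and p-value, with the MACS2 pseudocount of 1, a scaling factor per library (0.415 and 0.997 for H3K4me3, 1 and 0.746 for MafA) and a relative tolerance of 0.0001 on −log10 p. This solved 99.97 to 100% of peaks. Fragment numbers limit precision, and no intervals are given for them. The routines were tested on simulated data.

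The members and lists were chosen with earlier results of these data known, so lists are described by counts beside all protein-coding genes, with no set test. All 43 genes were named. Values per library were given for the 12 highest by fold enrichment, the 5 with the most regions, those over H3K4me3 at a gene end, 14 genes fixed by name, and those whose replicates differed by over 1.5 times. Library values were compared by an exact permutation test. The counts of members and coregulators with a MafA region, marked members, marked members with a MafA region, members with one over H3K4me3 at a gene end, MafA regions at members, and the median strongest fold enrichment were recomputed with 50% reciprocal overlap, equal numbers of the strongest peaks and peaks of −log10 q 5 or more. Other windows were tried where a result uses them, and libraries were left out in turn. The 2 library comparisons had the same alternatives except reciprocal overlap, and a replicate block. Other counts were not recomputed, except the mark by RefSeq starts. Software was matplotlib 3.10.9, scipy 1.17.1, pandas 2.3.3 and numpy 2.4.6 under Python 3.11.15.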

Additional observations from a re-analysis of the deposited data

How the results depend on the processing

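Most counts stayed within 1.5 times their value. Members with a MafA region numbered 19 to 34 over all settings tried, and members with the H3K4me3 mark 29 to 33. Keeping the 16020 strongest peaks of every library moved 4 results: MafA regions from 92 to 39, marked members with a region from 23 to 14, members with a region over H3K4me3 at a gene end from 11 to 3, and the median strongest fold enrichment from 10.2 to 12.2. Fewer peaks enter there by construction, and the cut is by fold enrichment, which was lower at MafA regions over H3K4me3. The shares over all genes were not recomputed. Leaving out a MafA replicate gave 114 to 146 regions (146 without replicate 1, since a list on its own need not be matched) and a median of 8.21 to 11.0. Measured in fragments at the summit, the median of the highest value per member was 120.5 (77 and 164 in the replicates). Under a replicate block the differences in width (-1124 bp) and in peaks near gene ends (-30.2 points) were the same, with an exact permutation p of 0.5, the smallest possible. The numbers do not pair the libraries: replicate ratios of MafA and H3K4me3 had a correlation of 0.033 over 6115 overlapping pairs of regions. Requiring 50% reciprocal overlap moved the strongest region of Esrrb to 7.14 and of Nr2c1 to 3.35, by more than the replicate spread. The mark by RefSeq start sites was added after seeing the data. MafA summits with 10 to 30 fragments, frequent in Rora, limit what single weak regions can show.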

Other observations

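Several receptor genes had H3K4me3 more than 1 kb from both gene ends, in some cases inside the gene and in others outside it. Most of the examples given here lie inside. In Rora a region 96.8 kb from the nearest end had a fold enrichment of 29.0 and 23.1 in replicates 1 and 2, as high as the region over the gene's own end (26.9 and 21.0) within the spread of the replicates. In Esrrg an internal region 42.4 kb from an end had 21.7 and 17.3, above the 7.19 and 6.98 at the end, and another, 214 kb from an end, had 10.6 and 10.2. Both of these internal regions lay over a RefSeq start. In Nr3c1 a region 3.79 kb wide had 20.4 and 13.8. In Nr2f2 the internal region, 3.72 kb wide and 4.4 kb from an end, had 14.8 in both replicates, while the one near the gene end had 9.80 and 6.50. At Nr0b2 the sole H3K4me3 region lay 6.97 kb outside the gene, with 29.5 and 22.4.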
